A study of Homo sapiens with 7 samples.

Results

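The short arm of chromosome 11 was followed through a time course of low oxygen in SK-N-BE(2), a MYCN-amplified human neuroblastoma cell line. Its members were all peaks of 5-hydroxymethylcytosine (5-hmC) with a midpoint between 0 and 51 Mb of chromosome 11 in hg19, which came to 24295 of 1873636 peaks over 6 lists. Cells labelled wild type were grown at 21% oxygen (normoxia, 0 h) or at 1% oxygen (hypoxia) for 6, 12, 24, 48 or 72 h, and 1 captured library of each time gave 1 list of peaks. The arm was chosen by its peak numbers in hypoxia relative to 0 h in these same lists, so every value against 0 h is a description and was not tested. Ratios among the 5 hypoxia lists were not used for that choice, although each list's own number entered it through its ratio to 0 h, so an arm low at 6 h is favoured by the choice to be higher later. Normoxia was sampled at 0 h alone, so low oxygen and time in culture cannot be told apart. With 1 library per time no difference has a replicate error, and the intervals given are 95% intervals of counting error only, which treat neighbouring peaks as independent.

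5-hmC is made from 5-methylcytosine by the TET enzymes, which use oxygen, iron and 2-oxoglutarate, and it lies mainly in the bodies of active genes and in enhancers. The short arm of chromosome 11 carries near its tip an imprinted cluster with IGF2, a fetal growth factor gene, and H19, a non-coding RNA gene expressed from the maternal copy. It also carries the beta-globin genes, many olfactory receptor genes, which encode odour receptors, and the developmental transcription factor genes WT1 and PAX6. Gene positions of hg19 were not used here, so the regions below are given by coordinates alone, and no sequence is printed.

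Over the whole series the lists held between 285292 and 352484 peaks, and the narrowest peak measured between 226 and 242 bp. Both numbers differed between lists. The lists give neither read depth nor the copy number of the arm, and the part of either in the results was not tested. The arm was therefore set against the 21 other autosomes of the same list, and against chromosome 11 from 55 Mb to its end, called the long arm below.

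The short arm held most peaks relative to other autosomes in normoxia. It held 3991 peaks at 0 h, 3629 after 6 h, 3690 after 12 h, 4100 after 24 h, 4317 after 48 h and 4568 after 72 h. The counts after 6 and 12 h were thus below that of 0 h, while the other autosomes together held 266992 peaks at 0 h, 274675 after 6 h and 275951 after 12 h. The long arm held 9959 peaks at 0 h, 9930 after 6 h, 10040 after 12 h and 11427 after 72 h. Peaks on the short arm made up 1.42% of autosomal peaks at 0 h (interval 1.38 to 1.47%), 1.26% after 6 h (1.22 to 1.30%) and 1.27% after 12 h (1.23 to 1.32%). Their share was 1.33% after 24 h (1.29 to 1.38%), 1.30% after 48 h (1.26 to 1.34%) and 1.32% after 72 h (1.28 to 1.36%). The 0 h share lay above that of every hypoxia list, which is the contrast that chose the arm. The intervals of the 5 hypoxia lists all overlapped one another.

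**Figure D1:**
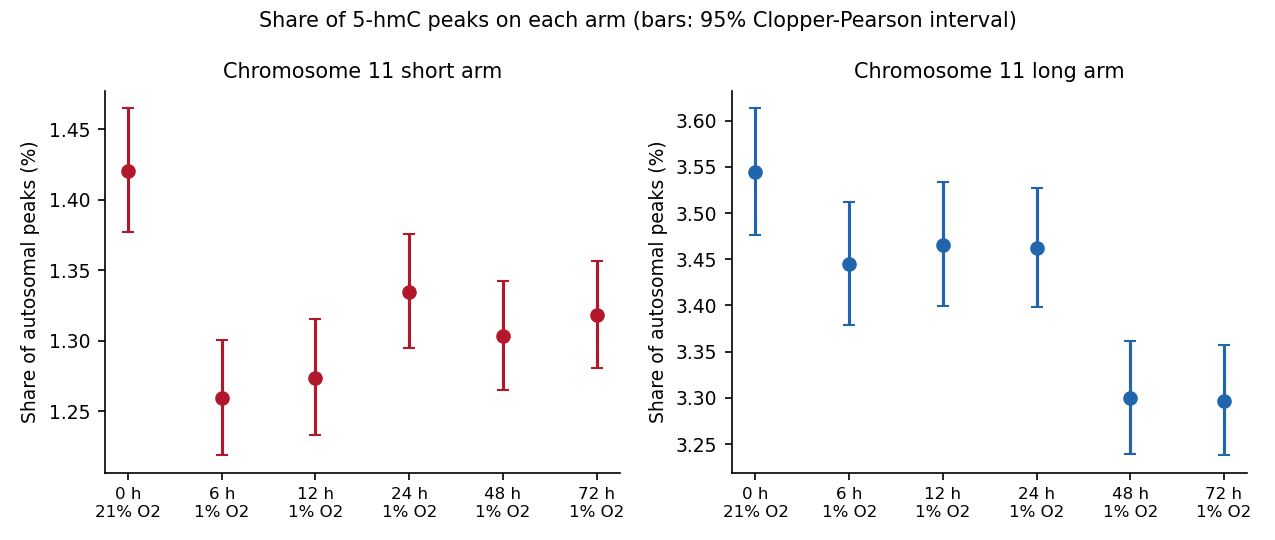
Share of autosomal peaks (%) on the short arm (left) and the long arm (right) of chromosome 11, by list; points are single lists and bars are 95% Clopper-Pearson intervals, and the axes do not start at 0. On the short arm the 0 h list, at 1.42%, lies above the 5 hypoxia lists, which range from 1.26% to 1.33%; on the long arm the lists of 48 and 72 h, both at 3.30%, lie lowest.

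Expressed as the number on the short arm over the number on the 21 other autosomes, divided by the same quotient at 0 h, the relative number was 0.884 after 6 h (0.845 to 0.925), 0.895 after 12 h (0.855 to 0.936), 0.938 after 24 h (0.898 to 0.980), 0.914 after 48 h (0.875 to 0.954) and 0.924 after 72 h (0.886 to 0.965). Pooled over the 5 hypoxia lists it was 0.912 (0.881 to 0.944). Among 39 autosomal arms this placed the short arm lowest after 6 and 12 h, the second lowest after 24 and 48 h, and the third lowest after 72 h. The short arm of chromosome 19 was the lowest at these later times, with 0.883 after 72 h. The long arm of chromosome 11 had relative numbers of 0.969 after 6 h, 0.975 after 12 and 24 h, and 0.927 after 48 and 72 h. Both arms of the chromosome therefore lay below 1 at every time. Set against the long arm in place of the other autosomes, the short arm was at 0.912 after 6 h, 0.917 after 12 h, 0.962 after 24 h, 0.985 after 48 h and 0.998 after 72 h. By that measure the difference from 0 h was present early and was no longer seen after 72 h.

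On the other autosomes bins with few peaks gained proportionally more over time, and the short arm has fewer peaks per Mb than the long arm, with 78.3 against 124 at 0 h. An adjusted value was therefore computed, which divides the arm's number by the number its 1 Mb bins would have had at the ratios seen in bins of like peak density on other chromosomes. Adjusted in this way, the short arm was at 0.880 after 6 h, 0.891 after 12 h, 0.918 after 24 h, 0.873 after 48 h and 0.877 after 72 h. The range of the other 38 arms was 0.942 to 1.05 after 6 h and 0.926 to 1.05 after 72 h.

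Each list was then set against the mean of the other 5. For 0 h this is the inverse of the contrast that chose the arm, and the other 5 ratios have 0 h in their denominator, so all 6 are descriptions. On the short arm this ratio was 1.10 at 0 h (1.06 to 1.14), 0.946 after 6 h (0.913 to 0.980), 0.960 after 12 h (0.927 to 0.994), 1.02 after 24 h (0.982 to 1.05), 0.985 after 48 h (0.953 to 1.02) and 0.998 after 72 h (0.966 to 1.03). The 0 h value was the highest of 39 arms, the next being the short arm of chromosome 19 at 1.09 and the long arm of chromosome 11 at 1.05. At 6 and 12 h the short arm was the second lowest of 39. With adjustment for density the 0 h value was 1.13, where no other arm exceeded 1.06, and the other lists gave 0.966 after 6 h, 0.981 after 12 h, 1.02 after 24 h, 0.957 after 48 h and 0.962 after 72 h.

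**Figure D2:**
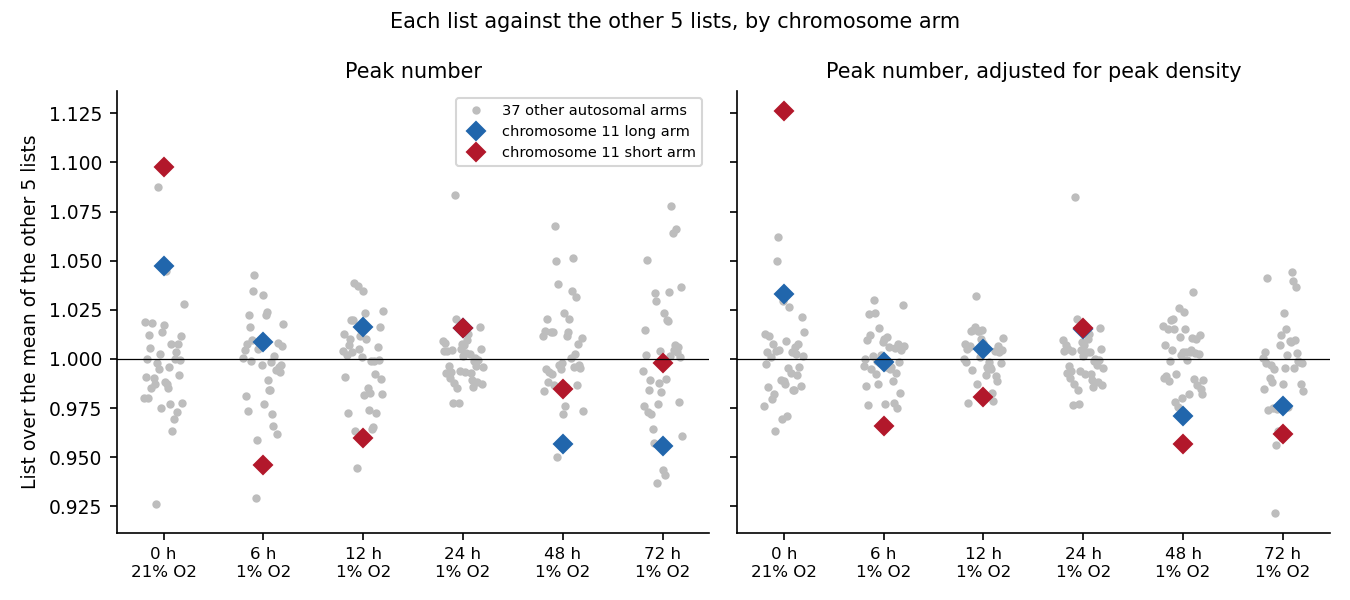
Peak number of each list over the mean of the other 5 lists, plain (left) and adjusted for peak density (right); each grey point is one of 37 other autosomal arms, and diamonds mark the short (red) and long (blue) arm of chromosome 11. The short arm stands above all other arms at 0 h, at 1.10 and 1.13, and among the lower arms after 6 and 12 h. On the right it is also the lowest arm after 48 h, at 0.957, and the 4th lowest after 72 h, at 0.962.

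The gap between 0 h and the nearest hypoxia list was about as large as the spread of the hypoxia lists themselves. The 0 h quotient was 6.62% above that of 24 h, the highest hypoxia list, and the hypoxia lists spanned 6.12% between 24 and 6 h. This was the largest gap of the 39 arms, the next being 4.0%. It was the only arm in which the gap exceeded the spread over hypoxia. The 0 h list lay above all hypoxia lists in 10 arms and below all of them in 9. After adjustment for density the gap was 8.96% and the spread over hypoxia 5.13%. On this scale the next largest gap was 3.84%, and the gap exceeded the spread in 5 arms, the short arm among them. The order of gap and spread was not stable. With peaks of at least 500 bp the gap was 9.16% and the spread 10.9%, with peaks of at least 242 bp they were 5.84% and 7.72%, and against the long arm they were 0.247% and 9.38%. By covered length the gap was 8.14% and the spread 7.71%. The 0 h list was the highest of the 6 under each of these choices.

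Among the 5 hypoxia lists the ratio of the highest to the lowest was 1.06 on the short arm. This spread is that of lists picked as extremes, so no interval is read for it. It was the 11th widest of 39 arms, whose median spread was 1.04. Each hypoxia list against the mean of the other 4 gave 0.963 after 6 h (0.929 to 0.998), 0.978 after 12 h (0.943 to 1.01), 1.04 after 24 h (1.00 to 1.07), 1.00 after 48 h (0.971 to 1.04) and 1.02 after 72 h (0.985 to 1.05). The 24 h list was thus the highest and the 6 h list the lowest. Its value after 24 h was the second highest of 39 arms, and that after 6 h was the fifth lowest.

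Of the 10 pairs of hypoxia lists, 24 against 6 h gave the largest ratio, 1.06, the second highest of 39 arms for that pair. The 24 h list against 12 h gave 1.05. The 72 h list against 6 h gave 1.05 (1.00 to 1.09), where the other arms ranged from 0.928 to 1.09. The 12 h list against 6 h gave 1.01 (0.967 to 1.06), the 48 h list against 24 h 0.974 (0.933 to 1.02) and the 72 h list against 48 h 1.01 (0.970 to 1.05). These last 3 intervals include 1. All these intervals hold counting error within 1 library per time, so whether any of the steps differed cannot be read from them. With adjustment for density the ratio of 72 to 6 h was 0.997, on the other side of 1, and that of 24 to 6 h was 1.04. After adjustment the 72 h list was thus level with 6 h, whereas the 24 h list still ranked second highest of the 39 arms.

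Along the arm the lower numbers after 6 and 12 h were spread over its whole length. All 10 blocks of 5 Mb were below 1 relative to 0 h after 6 and after 12 h, from 0.828 to 0.958 after 6 h and from 0.851 to 0.924 after 12 h. At 24 and 48 h 8 blocks were below 1, and after 72 h 7 were. The exceptions lay in the middle of the arm. The block from 25 to 30 Mb held 242 peaks at 0 h, 223 after 6 h, 218 after 12 h, 280 after 24 h, 324 after 48 h and 328 after 72 h, with relative numbers of 0.898 after 6 h and 1.10 after 72 h. Its neighbours from 20 to 25 Mb and from 30 to 35 Mb reached 1.06 and 1.08 after 72 h.

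Both ends of the arm stayed lower. The block from 45 to 50 Mb, nearest the centromere, held 431 peaks at 0 h, 366 after 6 h, 378 after 12 h, 414 after 24 h, 438 after 48 h and 450 after 72 h, with relative numbers between 0.828 and 0.879. The block at the tip, from 0 to 5 Mb, held 712 peaks at 0 h, 618 after 6 h and 755 after 72 h, and its relative number was 0.846 after 6 h, 0.925 after 24 h and 0.860 after 72 h. The block from 15 to 20 Mb was lowest late in the series. It held 462 peaks at 0 h, 410 after 6 h, 440 after 12 h, 468 after 24 h, 459 after 48 h and 461 after 72 h. Its relative number was 0.926 after 24 h, 0.843 after 48 h and 0.809 after 72 h. Adjusted for density, all 10 blocks were below 1 against 0 h at all 5 times, and 5 of the 10 were below 1 for 72 h against 6 h.

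The comparison by peak density shows the same from another side. In the 17 bins of the short arm with a mean of 100 or more peaks, there were 2533 peaks at 0 h, 2275 after 6 h, 2347 after 12 h, 2520 after 24 h, 2533 after 48 h and 2657 after 72 h. At 72 h this was 1.05 times the number at 0 h, where bins of that class held 1.12 times as many on the long arm and 1.19 times as many on the other autosomes. In the 21 bins with a mean of 40 to 100 peaks the numbers were 1292 at 0 h, 1217 after 6 h and 1688 after 72 h. The ratio of 72 to 0 h was 1.31 in these bins, against 1.42 on the other autosomes. In the 13 bins with fewer peaks it was 1.34, against 1.52. From 6 to 72 h the ratios were 1.17, 1.39 and 1.63 from the densest to the sparsest class. On the other autosomes they were 1.16, 1.36 and 1.45. The sparsest class of the short arm held 137 peaks after 6 h and 223 after 72 h. The 6 h list entered the choice of the arm, which favours a rise from it, so nothing is read from these ratios.

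By 1 Mb bins, 42 of the 51 bins of the arm had a mean of at least 20 peaks, and a bin was called lower or higher when its number relative to autosomal totals was at least 20% lower or at least 25% higher. At 6 h 7 of 42 bins were lower than at 0 h, where the background over 2404 autosomal bins was 0.998%. At 12 h 3 were lower (background 0.499%), after 24 h 0 (0.125%), after 48 h 3 (0.749%) and after 72 h 2 (1.33%). Higher than at 0 h were 0 bins after 6 h and 0 after 12 h (background 1.16% each), 3 after 24 h (3.74%), 2 after 48 h (10.7%) and 5 after 72 h (14.4%). The choice of the arm used this contrast, so nothing is read from these counts. Among hypoxia lists, with 6 h as the reference, 1 bin was lower after 12 h (background 0.541%) and 0 were lower after 24 h (0.166%), 48 h (0.291%) and 72 h (0.499%). Bins higher than after 6 h numbered 1 after 12 h (background 0.666%), 3 after 24 h (2.33%), 5 after 48 h (8.49%) and 8 after 72 h (12.1%). The median ratio of the 42 bins to 6 h was 1.02 after 12 h, 1.06 after 24 h and 1.08 after 48 and 72 h, against 0.995, 1.01 and 1.02 on the other autosomes. The 9 bins under the minimum held 73 peaks at 0 h and 91 after 72 h.

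The 0 h list gave the highest relative number of the 6 lists in 20 of the 42 bins (47.6%), where the background was 17.6%, and this too is the contrast that chose the arm. The 6 h list was highest in 1 bin (background 12.9%), the 12 h list in 1 (12.2%), the 24 h list in 2 (9.28%), the 48 h list in 6 (16.8%) and the 72 h list in 12 (31.1%). The last of these shares is 28.6% of the 42 bins, near its background.

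**Figure D3:**
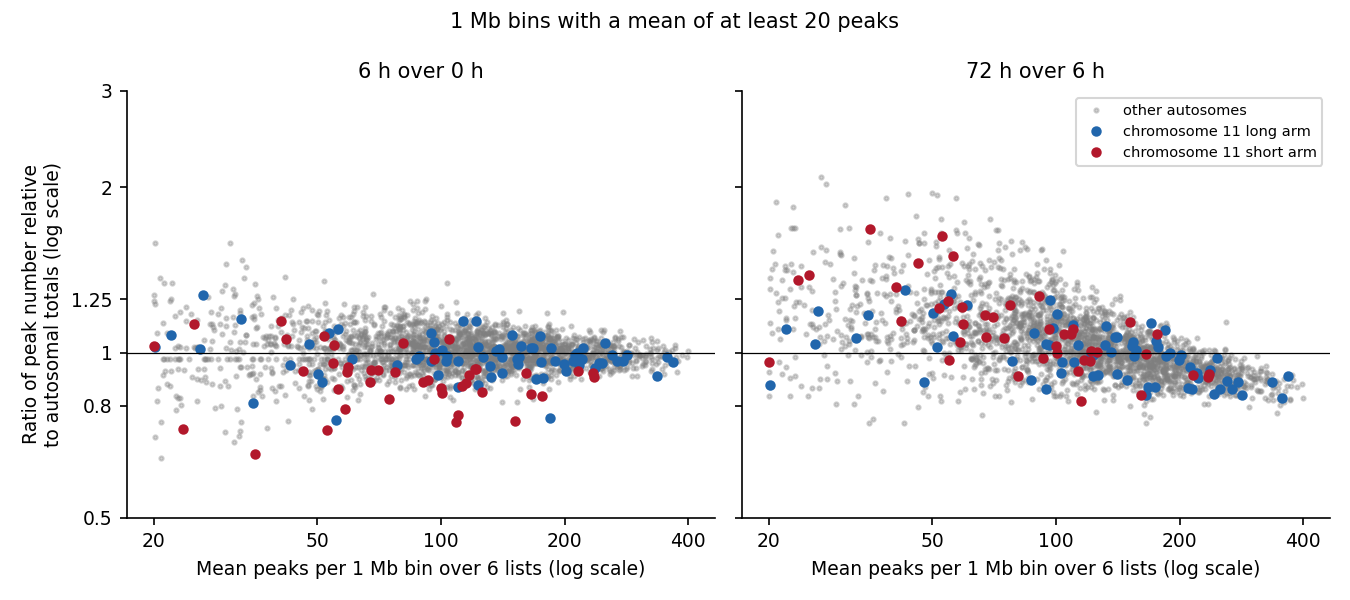
Ratio of relative peak number of 6 h over 0 h (left) and of 72 h over 6 h (right) for 1 Mb bins with a mean of at least 20 peaks, against that mean (both axes logarithmic); red points are the 42 bins of the short arm, blue points the long arm and grey points other autosomes. At 6 h 34 of the 42 red points lie below 1, and from 6 to 72 h 14 do, within the cloud that falls with density.

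Single bins were ranked among the 42 with a mean of at least 20 peaks. Among these, the lowest mean ratio to 0 h over hypoxia was that of 46 to 47 Mb. This bin held 119 peaks at 0 h, 94 after 6 h, 90 after 12 h, 109 after 24 h, 122 after 48 h and 125 after 72 h, with a mean ratio of 0.813. It was lowest after 6 and 12 h, and by 48 h its number had passed that of 0 h while remaining below the general gain. The bin from 17 to 18 Mb held 116 peaks at 0 h, 89 after 6 h, 104 after 12 h, 114 after 24 h, 113 after 48 h and 116 after 72 h (mean ratio 0.831). The bin from 15 to 16 Mb held 123 at 0 h, 111 after 6 h, 118 after 12 h, 122 after 24 h, 107 after 48 h and 109 after 72 h (0.835), so that its lowest values came late. The bins from 36 to 37 Mb (0.836) and from 0 to 1 Mb (0.837) followed. The bin at the tip of the arm held 160 peaks at 0 h, 123 after 6 h, 134 after 12 h, 158 after 24 h, 164 after 48 h and 168 after 72 h.

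At the other end, the bin from 32 to 33 Mb held 29 peaks at 0 h, 34 after 6 h, 36 after 12 h, 40 after 24 h, 52 after 48 h and 54 after 72 h (mean ratio 1.32). The bins from 39 to 40 Mb (1.22), 28 to 29 Mb (1.21), 16 to 17 Mb (1.15) and 9 to 10 Mb (1.06) followed, the first 3 of them with at most 64 peaks in any list. From 6 to 72 h the largest ratio among the 42 was that of the bin from 42 to 43 Mb, 1.68, with 33 peaks at 0 h, 22 after 6 h, 31 after 12 h and 45 after 72 h. It was followed by 23 to 24 Mb (1.63) and 25 to 26 Mb (1.5). The smallest among them was that of 15 to 16 Mb (0.817), then 19 to 20 Mb (0.837) and 12 to 13 Mb (0.903). At the edge of the arm, the bin from 50 to 51 Mb held 0 peaks at 0, 6 and 12 h and 1 at each later time. The 4 bins from 51 to 55 Mb held none in any list, and the bin from 55 to 56 Mb held 1 peak at 0 h and 3 after 72 h.

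Peaks of the short arm were then followed one by one, a peak counting as kept when at least 1 bp overlapped a peak of the other list. Of the 3991 peaks at 0 h, 917 (22.98%) had no counterpart after 6 h, 885 (22.2%) after 12 h, 710 (17.8%) after 24 h, 709 (17.8%) after 48 h and 687 (17.2%) after 72 h. On the long arm the share was 14.6% after 6 h and 11.04% after 72 h, and on the other autosomes 13.7% and 9.91%. The share lost from the short arm was the highest of 39 arms at each of the 5 times. Peaks lost by 6 h had a median width of 269 bp, against 423 bp for those kept, and 29 of the 917 measured 500 bp or more. Lost peaks were likewise narrow on the other autosomes (265 against 427 bp) and on the long arm (267 against 457 bp).

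Peaks without a counterpart at 0 h numbered 560 after 6 h (15.4% of that list's peaks on the arm), 579 after 12 h (15.7%), 844 after 24 h (20.6%), 1050 after 48 h (24.3%) and 1287 after 72 h (28.2%). On the other autosomes the share was 17.7% after 6 h and 29.7% after 72 h. At 6 and 12 h the short arm had the second lowest share of 39 arms, above the long arm of chromosome 11, and after 24 h it stood in the middle, the 19th lowest. The lower numbers after 6 and 12 h thus came with larger lost and smaller gained shares than on the other autosomes together. An arm chosen for lower numbers than at 0 h is favoured to show this, so it is a description.

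With 6 h as the reference, the share gained was higher than on the other autosomes at each later time, and the share lost was higher after 12, 48 and 72 h but not after 24 h. The 6 h list was the lowest on the arm and entered the choice of the arm, which favours gains from it. Of 3629 peaks after 6 h, 627 (17.3%, interval 16.1 to 18.5%) had no counterpart after 12 h, against 14.7% on the other autosomes (14.6 to 14.9%). The share was 12.3% after 24 h, as on the other autosomes (12.3%), 12.1% after 48 h against 10.2%, and 12.9% after 72 h against 10.0%. In the other direction, 18.1% of 12 h peaks on the arm had no counterpart after 6 h, against 14.5%. At 24 h this was 22.95% against 17.6%, after 48 h 26.5% against 22.5%, and after 72 h 31.2% (29.9 to 32.6%) against 26.5% (26.4 to 26.7%). At 72 h the gained share ranked 34th from the lowest of 39 arms.

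All overlapping peaks of the 6 lists were merged, which gave 5728 regions on the short arm. Every list held 2332 of them (40.7%), against 50.2% on the long arm and 47.1% on the other autosomes. Regions in 0 h alone numbered 208 (3.63%, interval 3.16 to 4.15%), those in 6 h alone 87 (1.52%), in 12 h alone 94 (1.64%), in 24 h alone 150 (2.62%), in 48 h alone 183 (3.19%) and in 72 h alone 399 (6.97%). On the other autosomes the shares were 1.78% at 0 h, 1.72% after 6 h, 1.57% after 12 h, 2.12% after 24 h, 3.43% after 48 h and 7.12% after 72 h. The share in 0 h alone was higher on the arm, as the choice of the arm favours. The shares of 6, 12, 48 and 72 h had intervals that included those of the other autosomes, while that of 24 h alone (2.22 to 3.07%) did not.

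Regions that a single list lacked showed the complementary picture. On the short arm 108 regions (1.89%, 1.55 to 2.27%) were lacking from 0 h alone, against 3.03% on the other autosomes. Lacking from 6 h alone were 127 (2.22%, 1.85 to 2.63%) against 1.69%, and from 12 h alone 125 (2.18%, 1.82 to 2.59%) against 1.66%. Lacking from 24 h alone were 46 (0.803%, 0.589 to 1.07%) against 0.971%, from 48 h alone 55 (0.960%, 0.724 to 1.248%) against 0.635%, and from 72 h alone 90 (1.57%, 1.27 to 1.93%) against 0.964%. The share lacking from 0 h alone is favoured to be small, and that in 0 h alone to be large, by the choice of the arm, and nothing is read from either. Regions lacking from 1 hypoxia list alone are present at 0 h by definition, so these shares too are a description. The lists of 6, 12, 48 and 72 h lacked a larger share on the short arm than on the other autosomes. The interval of 24 h included the share of the other autosomes. On the long arm the share lacking from 6 h alone was 1.99%, within the interval of the short arm. Its shares for 12 h (1.64%), 48 h (0.665%) and 72 h (1.11%) lay below the intervals of the short arm. A further 82 regions of the arm (1.43%, 1.14 to 1.77%) were present at 0 h and from 24 h on but not after 6 or 12 h. The share was 0.941% on the long arm and 0.857% on the other autosomes. In the lists of 0 and 24 h alone were 49 (0.855%, 0.634 to 1.13%), against 0.448% and 0.359% in the same order. In those of 0, 48 and 72 h alone were 57 (0.995%, 0.755 to 1.29%), against 0.523% and 0.614%. These patterns hold 0 h and lack 6 and 12 h, which the choice of the arm favours, so nothing is read from them.

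**Figure D4:**
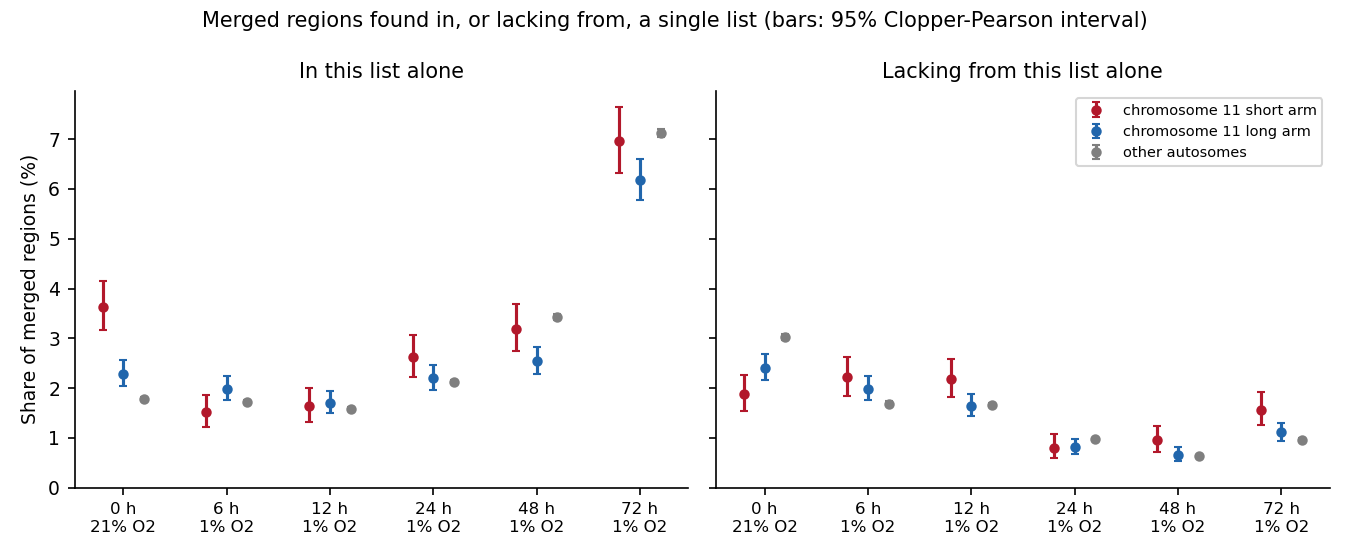
Share of merged regions (%) found in a single list alone (left) and lacking from a single list alone (right), by list, for the short arm (red), the long arm (blue) and the other autosomes (grey); bars are 95% Clopper-Pearson intervals. On the short arm 3.63% of regions are in 0 h alone, against 1.78% on the other autosomes, and 1.89% are lacking from 0 h alone, against 3.03%.

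The short arm was covered by less peak length after 6 and 12 h than at 0 h. Its peaks covered 1904 kb at 0 h, 1758 kb after both 6 and 12 h, 1986 kb after 24 h, 2047 kb after 48 h and 2217 kb after 72 h. Peaks of at least 1000 bp numbered 235 at 0 h, 221 after 6 h, 212 after 12 h, 234 after 24 h, 230 after 48 h and 237 after 72 h, so that the number of wide peaks hardly differed between the ends of the series. They were 5.89% of the arm's peaks at 0 h and 5.19% after 72 h, whereas on the other autosomes the share was 7.74% at 0 h and 8.73% after 72 h.

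Peak width was not the measure that chose the arm, but it comes from the same lists and the same contrast, so widths against 0 h are given as a description. It was compared where every list had exactly 1 peak in a region. There were 1893 such regions on the short arm. Their median width was 437 bp at 0 h, 426 bp after 6 h, 421 bp after 12 h, 447 bp after 24 h, 443 bp after 48 h and 460 bp after 72 h. On the other autosomes the medians were 434 bp at 0 h, 458 bp after 6 h, 448 bp after 12 h, 467 bp after 24 h, 485 bp after 48 h and 503 bp after 72 h. At these regions the short arm began level with the other autosomes at 0 h and was narrower in every hypoxia list. Over all peaks it was already narrower at 0 h, with a median of 376 bp against 396 bp, and after 72 h the medians were 390 and 423 bp.

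The median ratio of width to that at 0 h was 0.987 after 6 h, 0.976 after 12 h, 1.02 after 24 and 48 h and 1.05 after 72 h. It was the lowest of 39 arms at each of the 5 times. At 6 and after 12 h no other arm was below 1, with lowest values of 1.02 and 1.01. At 6 h 46.9% of the regions were wider than at 0 h (44.6 to 49.2%), against 60.4% on the other autosomes, and after 72 h 59.2% were (56.9 to 61.4%), against 71.6%. Among hypoxia lists the order differed. From 6 to 24 h the median ratio was 1.03, the highest of 39 arms, which otherwise ranged from 0.996 to 1.03. From 6 to 12 h it was 0.986, the 29th from the lowest. From 6 to 72 h it was 1.06, the 13th lowest in a range of 1.04 to 1.11.

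**Figure D5:**
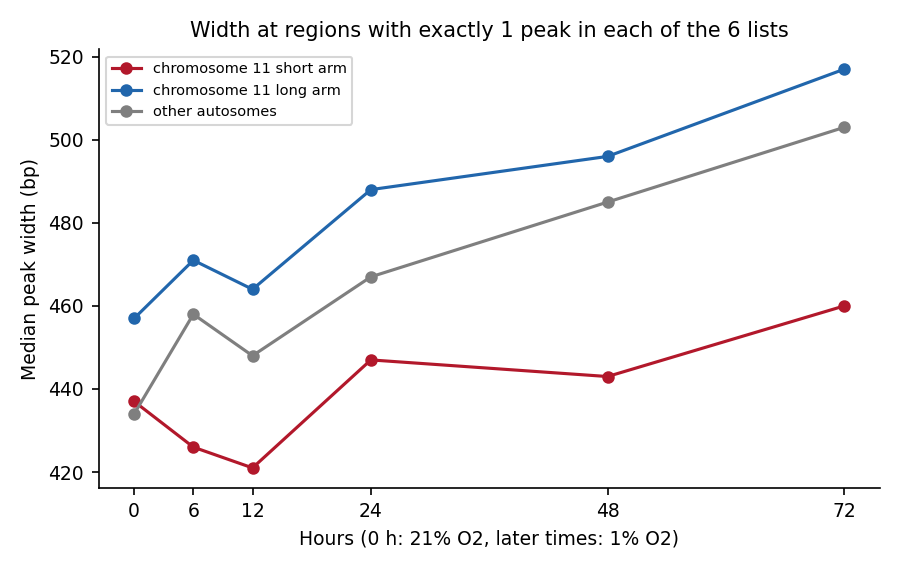
Median peak width (bp) against hours at regions where each of the 6 lists had a single peak, for the short arm (red, 1893 regions), the long arm (blue, 5217) and the other autosomes (grey, 146512); the axis does not start at 0. The short arm goes from 437 bp at 0 h to 421 bp after 12 h and 460 bp after 72 h, while the other autosomes go from 434 to 503 bp.

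The 5 regions found in every list with the largest mean covered length over the lists kept most of their covered length throughout. That rule favours regions that keep their length, so this is a description. The widest lay at chr11:1977665-1993683, where peaks covered 15466 bp at 0 h, 14906 bp after 6 h, 14889 bp after 12 h, 14797 bp after 24 h, 14647 bp after 48 h and 14684 bp after 72 h. The next in order, chr11:2008782-2016078 and chr11:2000663-2007349, lay close by on its proximal side, with 6516 to 7162 bp and 6342 to 6630 bp covered over the lists. They were followed by chr11:3169632-3176090, with 5096 bp after 48 h and 6159 bp after 72 h as its extremes, and chr11:1417679-1422878, with 4598 to 4919 bp. All 5 lie in the block at the tip of the arm, which had fewer peaks relative to other autosomes in hypoxia.

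Regions seen at 0 h alone were narrow. The 208 had a median width of 246.5 bp, near the narrowest peak of the list (226 bp), and 2 of them measured at least 500 bp. The widest were chr11:3901446-3902045 (600 bp), chr11:44717343-44717880 (538 bp), chr11:34364874-34365358 (485 bp), chr11:3393661-3394123 (463 bp) and chr11:7292412-7292862 (451 bp). For the next class a merged width over 5 lists is given, which can exceed each peak and is not comparable with these widths. The 108 regions in all 5 hypoxia lists and not at 0 h had a median merged width of 356.5 bp, and 14 measured at least 500 bp. The widest 72 h peaks among them lay at chr11:33720942-33721639 (698 bp), chr11:32702658-32703313 (656 bp), chr11:33169540-33170172 (633 bp), chr11:26684674-26685272 (599 bp) and chr11:17924412-17924965 (554 bp). The first of these covered 556 bp after 6 h, 464 bp after 12 h, 649 bp after 24 h, 427 bp after 48 h and 698 bp after 72 h. The first 3 lie between 32 and 34 Mb, where the bin from 32 to 33 Mb had the highest mean ratio to 0 h among the 42 bins.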

How the data were processed

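Sheared genomic DNA of SK-N-BE(2) was used for selective chemical labelling and streptavidin capture of 5-hmC, per the labels' protocols. Of 7 samples, an input is not analysed here. The authors deposited 1 list per time with 3 columns of no measured scale other than position (chromosome, start, end). The submitters' processing notes name hg19 as the build and, as tools, MACS2, HTSeq and BWA 0.7.17; how the caller was set and whether it used the input is not given in the sources used here.

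Peaks were placed by midpoint. Each other autosome was split into arms at its widest stretch free of peaks, except chromosomes 13, 14, 15, 21 and 22, which counted as 1 arm each. Bins had 0.5 added to each number. Ratios have exact binomial intervals of the 2 numbers on the arm, shares Clopper-Pearson intervals. Density adjustment used deciles of 1 Mb bins by mean number over the lists, with ratios taken from other chromosomes. Named bins and regions followed a rule: among bins with a mean of at least 20 peaks, the 5 lowest and 5 highest by mean ratio to 0 h, the 3 lowest and 3 highest by 72 h over 6 h, and the 5 widest regions of each class. The members, lists and comparisons were chosen with earlier results of these data known. The gene table at hand is for GRCh38.p14, another build, so genes and sequences were not joined. Alternatives were covered length, width minima, equal list lengths, merging, other overlaps, bin sizes and folds, and each hypoxia list left out. The computations were tested on simulated lists. Python 3.11.15, NumPy 2.4.6, SciPy 1.17.1 and Matplotlib 3.10.9 were used.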

Additional observations from a re-analysis of the deposited data

How the results depend on the processing

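The short arm stayed below 1 in hypoxia against 0 h, and 0 h above the mean of the other lists, under all 12 alternatives of each. These alternatives use the same lists and the contrast that chose the arm, so that side was favoured by the choice and nothing is read from it. Of 101 alternatives over all results, 54 stayed within the counting interval or within 1.5 times the count, 45 moved beyond it and 2 turned round; the causes were not tested. With peaks of at least 500 bp the arm was at 0.855 pooled over hypoxia, 0.840 after 6 h and 0.848 after 72 h, and 0 h was at 1.17 of the other lists. Against the long arm it was at 0.957 pooled, 0.998 after 72 h, 1.09 for 72 h over 6 h, and 0 h at 1.05 of the others. At 72 h it was at 0.878 with the same number of peaks per list (widest first) and at 0.877 adjusted for density. The ratio of 72 to 6 h turned round with these 2 choices, to 0.968 and 0.997, the first of which depends on how ties in width were settled. With each hypoxia list left out, the pooled ratio ranged from 0.905 to 0.918, the spread over hypoxia from 1.05 to 1.06 and the ratio of 0 h to the others, chosen after seeing the data, from 1.09 to 1.11. The same number per list keeps the 0 h list whole (285292 peaks) and removes peaks under 298 bp after 72 h. At 6 h it removed only peaks of 235 bp, that list's narrowest width, with ties settled by chromosome order and then position. That order placed chromosome 11 near the start, and the arm was at 0.907 after 6 h, against 0.884 as reported. The 0.968 for 72 over 6 h thus depends on the tie order, and no reversal is read from it.

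Bins lower than at 0 h after 6 h (7) numbered 0 at 5 Mb, 1 at a fold of 1.5 and 11 with no minimum number. At 72 h (2) they numbered 0, 0 and 5, and 6 by covered length or with peaks of at least 500 bp. Bins lower than after 6 h after 72 h (0) numbered 1 by covered length or with no minimum, and 3 with peaks of at least 500 bp. Bins higher (8) numbered 0 at 5 Mb, 3 at a fold of 1.5, 2 with peaks of at least 500 bp and 14 with no minimum.

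Peaks of 0 h lost after 6 h were 30.0% with overlap of at least 0.5 of both peaks, 25.2% by midpoint and 2.50% among peaks of at least 500 bp. Lost after 72 h were 26.8%, 19.5% and 2.59%, and 27.7% with the same number per list. Gained after 72 h were 36.0%, 31.0%, 5.98% and 19.5% in that order, and peaks of 6 h lost after 72 h 22.5%, 14.7%, 1.86% and 22.6%. Regions in 0 h alone were 4.39% with peaks of at least 500 bp and 5.88% with the same number per list, and those lacking at 0 h alone 1.249% with the latter. Over all peaks the median width after 72 h was 1.04 times that at 0 h, and with each list's narrowest width subtracted 52.7% of constant regions were wider after 72 h. Depth and copy number of the arm are unknown, so neither has a value here. No paired analysis was possible because each time has 1 library.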

Other observations

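Lists resembled one another less on the short arm than on the long arm or the other autosomes pooled, whether or not 0 h was included. The Jaccard index, the length shared by a pair of lists over the length covered by either, was 0.632 for 0 and 6 h on the short arm, 0.699 on the long arm and 0.678 on the other autosomes. For 6 and 12 h it was 0.647, 0.712 and 0.697, and for 48 and 72 h 0.647, 0.722 and 0.708. The short arm lay below the other autosomes in all 15 pairs. Its index minus theirs ranged from -0.0479 to -0.0330 in the 5 pairs with 0 h and from -0.0623 to -0.0493 in the 10 pairs of hypoxia lists, so the deficit was larger among the hypoxia lists. Pairs share lists and are not independent. The index was not computed for single other arms, so whether any of them lay as low was not tested. With 6 h as reference, the short arm's share lost ranked 4th highest of 39 arms after 12 and 72 h. It ranked 5th after 48 h and 22nd after 24 h. The share gained ranked 38th, 37th, 36th and 34th from the lowest after 12, 24, 48 and 72 h. Of the peaks on the arm, 29.0% measured at least 500 bp at 0 h and 29.6% after 72 h, against 33.4% and 37.2% on the other autosomes; the part of narrow peaks in the lower index was not tested.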
